A study of Arabidopsis thaliana with 57 samples.

Results

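Recovery from drought was followed in rosette leaves of Arabidopsis thaliana Col-0, the usual wild-type laboratory accession, by setting plants taken at the end of a drought beside plants that had been watered again. The samples belong to the groups labelled Drought_end-point and Drought_recovery. They were picked by these labels alone, without regard to any measured value, and are 6 of the 57 samples of the series, 3 in each group. Plants in both groups met a shortage of water for 3 days and were harvested at 18 days of age, 6 h after lights on. For the end-point group the shortage began on day 15 and ran up to the harvest. In the recovery group it started on day 12, and the plants then had 3 days under standard conditions, so the 2 groups differ both in the time since the drought and in the age at which it came, which cannot be told apart. A further group of 3 samples, labelled Cont_recovery, stayed in standard conditions throughout and gives the reference level. No end-point control was used here, so the end-point group is also set against this one. End-point and recovery groups of heat with drought and of high humidity, 3 samples in each, are compared with drought further on. Their treatments began on the same days as drought, lasted 3 days and had the same harvest. Standard conditions were 12 h of light at 22 °C and 120 µmol m-2 s-1 and 12 h of dark at 18 °C, at a relative humidity of 65%. The labels do not say whether the 3 samples of a group came from separate plants or trays. A p-value here rests on the spread within groups, estimated for each gene over all 51 libraries used (17 groups of 3). Some or all of that spread could be technical.

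Leaves that dry out make abscisic acid, the hormone that closes stomata and switches on protective genes. The hormone binds PYR/PYL receptors, which then block clade A type 2C protein phosphatases. SnRK2 kinases freed from those phosphatases activate bZIP factors of the ABF group, which bind the abscisic acid response element with the core ACGTG. Known targets include late embryogenesis abundant (LEA) proteins and dehydrins, which protect proteins and membranes in drying cells, and enzymes that make proline and raffinose-type sugars. Growth, by contrast, rests on cell wall loosening, water channels, cell division and ribosomes, and is slowed by drought in leaves.

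The deposited values are regularized log2 read counts per gene (rlog), a DESeq2 transform that pulls low counts towards the gene's mean and so understates the change of weakly expressed genes. Each library was set relative to its own median over the 19010 genes with a mean rlog of 3 or more, and the difference between groups was tested in limma with Benjamini-Hochberg adjustment over all 19010 genes, at an adjusted p of 0.05. A level below is a log2 value relative to the library median, and a difference is in log2 units with its standard error. In recovery 12145 genes (63.9%) differed from the end-point, 7472 of them higher (39.3%) and 4673 lower (24.6%). Of these, 840 were higher and 888 lower by 1 or more. The split depends on the scaling, because the deposited values have higher medians at the end-point (8.50, 8.31 and 8.54 in the 3 libraries) than in recovery (8.03, 8.09 and 7.98) or in the control (8.01, 7.86 and 7.86). Taken as deposited, the median gene was lower by 0.30 in recovery, and 12405 genes differed, 2001 higher and 10404 lower. Setting libraries on their medians moved the median of all genes to 0.11. Called in the same direction on both scales were 2001 genes that were higher (10.5%) and 4673 that were lower (24.6%). In what follows, "rose" and "fell" are used of genes that passed the test on both scales, and rises that passed only relative to the median are named as such. Unless a scale is named, "did not pass the test" refers to values relative to the median. Such a gene can still have been lower as deposited. List counts of rises, falls and genes higher relative to the median stand beside 10.5%, 24.6% and 39.3% of all genes.

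Since the abscisic acid response element is read in the bases before a gene's start, the 250 bases upstream of the start annotated in RefSeq (TAIR10.1) are shown for 3 of the genes that fell most and for the proline dehydrogenase gene ERD5. RD29B, a classic reporter of abscisic acid, lies on the plus strand of chromosome 5 and its upstream stretch is chr5:21236771-21237020. RAB18, a dehydrin gene, lies on the minus strand of the same chromosome, with chr5:26519448-26519697 upstream. AT3G02480, which encodes a LEA family protein, is on the plus strand of chromosome 3, with chr3:511970-512219 upstream. ERD5, on the minus strand of chromosome 3, has chr3:12451557-12451806 upstream. Capitals mark ACGTG on either strand (its complement reads CACGT) in the first 3, and in ERD5 they mark ACTCAT (complement ATGAGT), an element known from the promoter of this gene.
RD29B: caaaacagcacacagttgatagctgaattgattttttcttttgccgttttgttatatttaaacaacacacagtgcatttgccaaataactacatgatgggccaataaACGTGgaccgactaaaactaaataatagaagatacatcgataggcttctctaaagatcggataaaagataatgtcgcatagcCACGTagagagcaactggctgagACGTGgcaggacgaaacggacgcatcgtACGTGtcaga
RAB18: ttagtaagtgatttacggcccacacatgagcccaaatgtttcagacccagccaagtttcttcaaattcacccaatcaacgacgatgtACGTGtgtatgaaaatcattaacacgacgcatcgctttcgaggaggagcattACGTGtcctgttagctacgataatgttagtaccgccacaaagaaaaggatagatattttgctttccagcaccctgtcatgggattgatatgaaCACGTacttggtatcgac
AT3G02480: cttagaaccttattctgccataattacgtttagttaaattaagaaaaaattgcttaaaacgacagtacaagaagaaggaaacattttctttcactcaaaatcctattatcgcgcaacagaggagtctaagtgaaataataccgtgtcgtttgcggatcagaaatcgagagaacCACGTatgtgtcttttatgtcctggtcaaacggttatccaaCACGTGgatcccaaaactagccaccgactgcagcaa
ERD5: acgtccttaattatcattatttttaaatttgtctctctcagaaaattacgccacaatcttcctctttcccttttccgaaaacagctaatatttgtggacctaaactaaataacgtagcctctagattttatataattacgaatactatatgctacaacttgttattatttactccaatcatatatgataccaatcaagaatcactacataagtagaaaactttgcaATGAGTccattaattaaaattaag

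There are 4 matches to ACGTG in the RD29B stretch, 3 in RAB18 and 3 in AT3G02480, of which 2 overlap in 1 CACGTG. ERD5 holds 1 match to ACTCAT. Among the 18911 tested genes with such a stretch, 23.4% hold ACGTG, 13.1% hold CCGAC (the core of the dehydration response element) and 11.8% hold ACTCAT, on either strand. Of the 15 genes with the largest falls, 11 (73.3%) hold ACGTG and 6 (40.0%) hold CCGAC. Of the 15 with the largest rises, 4 (26.7%) hold ACGTG and 0 hold CCGAC. The LEA list holds ACGTG in 10 of 16 tested members (62.5%), the abscisic acid response list in 17 of 26 (65.4%), and the aquaporins in 1 of 17 (5.88%). Members of the circadian clock list hold it in 11 of 15 (73.3%), the same share as among the 15 largest falls. A match describes sequence and does not show that a factor binds there.

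The largest falls were taken as the 15 largest on both scales with no overlap between the 2 groups and no library of the series over an rlog of 20. The last condition left out 1 gene, RAB18, whose fall of 8.60 was larger than 14 of the 15 and which reached 20.72 in a heat-drought end-point library; it is described with its list. The largest fall was that of HSFA6A, a heat shock factor whose gene responds to drought and salt. HSFA6A stood at 4.99, 2.81 and 4.82 in the 3 end-point libraries, at -5.21, -5.71 and -6.08 in recovery and at -6.12, -5.56 and -5.91 in the control. Every end-point library lay above every library of the other groups, and recovery and control overlapped. The difference was -9.87 ± 0.61 (adjusted p = 1.87e-15). AT2G37870, which encodes a lipid transfer family protein, fell by 8.51, and NADP-ME1, a malic enzyme, fell by 8.34. Besides RD29B, LEA7 and LEA4-5, which are described with their lists, the other genes among the 15 were 4 of the LEA or seed maturation kind (AT3G02480, AT5G66780, AT3G17520 and AT2G21820), the lipid transfer protein genes LTP3 and LTP4, the gibberellin-regulated GASA3, a heavy metal transport family gene (AT4G08570) and AT4G01985, with no described function. Their falls ran from 8.28 in AT3G02480 to 7.55 in AT4G01985. LTP3 and LTP4 are close neighbours with similar sequence, so their counts may share reads.

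Genes that report abscisic acid signalling fell almost as a whole. Of the 26 members tested of the 27 on the list, 25 fell and 1 was higher relative to the median only, with a median difference of -3.24 against 0.11 over all genes. RD29B stood at 7.68, 4.44 and 5.49 at the end-point, -3.05, -0.80 and -3.05 in recovery and -2.52, -4.10 and -3.46 in the control. The highest recovery value, in replicate 2, lay well below the lowest end-point value. The difference was -8.17 ± 0.80 (adjusted p = 1.33e-10), a 289-fold lower level. RAB18 fell by 8.60 ± 0.62, from 9.58, 8.00 and 10.38 at the end-point to 0.38, 1.83 and -0.05 in recovery, beside 1.03, 0.48 and 0.99 in the control. Recovery and control libraries of RAB18 overlapped. RD29A, RD22, RD20 and the kinase gene MAPKKK18 fell by 4.45, 2.78, 3.16 and 3.22, the last of which did not pass the test with only the 2 groups in the fit (adjusted p = 0.0888). TSPO, a membrane protein that binds water channels for breakdown, fell by 7.54 ± 0.82.

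The phosphatases that hold the pathway down, and that are themselves made in response to the hormone, fell too. HAI1 stood at 4.71, 3.22 and 6.04 at the end-point, -2.33, -1.62 and -1.58 in recovery and -3.06, -3.49 and -2.50 in the control. All 3 recovery libraries remained above all 3 control libraries. The fall was -6.50 ± 0.63 (adjusted p = 1.07e-10), and the remaining distance from the control of 1.17 ± 0.63 did not pass the test (adjusted p = 0.375). HAI2 fell by 6.16, ABI2 by 3.26, PP2CA by 3.22, HAB1 by 2.51 and ABI1 by 1.99. For the factors that act at the end of the pathway, ABF2 fell by 2.37, ABF3 by 2.12, ABF4 by 1.86, ABF1 by 1.32 and ABI5 by 1.27. AFP1, which restrains ABI5, fell by 6.14, and the homeodomain genes HB-7 and HB-12 by 4.36 and 3.90. These falls were spread over a range of sizes, the smallest being that of ABI5.

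Of the NAC factors, RD26 fell by 4.01 ± 0.32 and overlapped with the control in recovery. NAC019 stood at -0.41, -0.21 and 0.30 at the end-point, -2.25, -1.63 and -1.27 in recovery and -3.37, -2.96 and -3.25 in the control. Its recovery libraries lay between the other groups with no overlap on either side. The fall of 1.61 ± 0.51 (adjusted p = 0.00673) covered 52.1% of its distance from the control, the smallest share on the list. NAC055 was the one member that was higher, by 0.73 ± 0.24 relative to the median, and it did not pass the test as deposited (adjusted p = 0.314) or without recovery replicate 2 (difference 0.59, adjusted p = 0.0606). GBF3, a bZIP factor, fell by 3.71 and kept a distance of 1.02 ± 0.44 above the control that did not pass the test (adjusted p = 0.276).

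**Figure D1:**
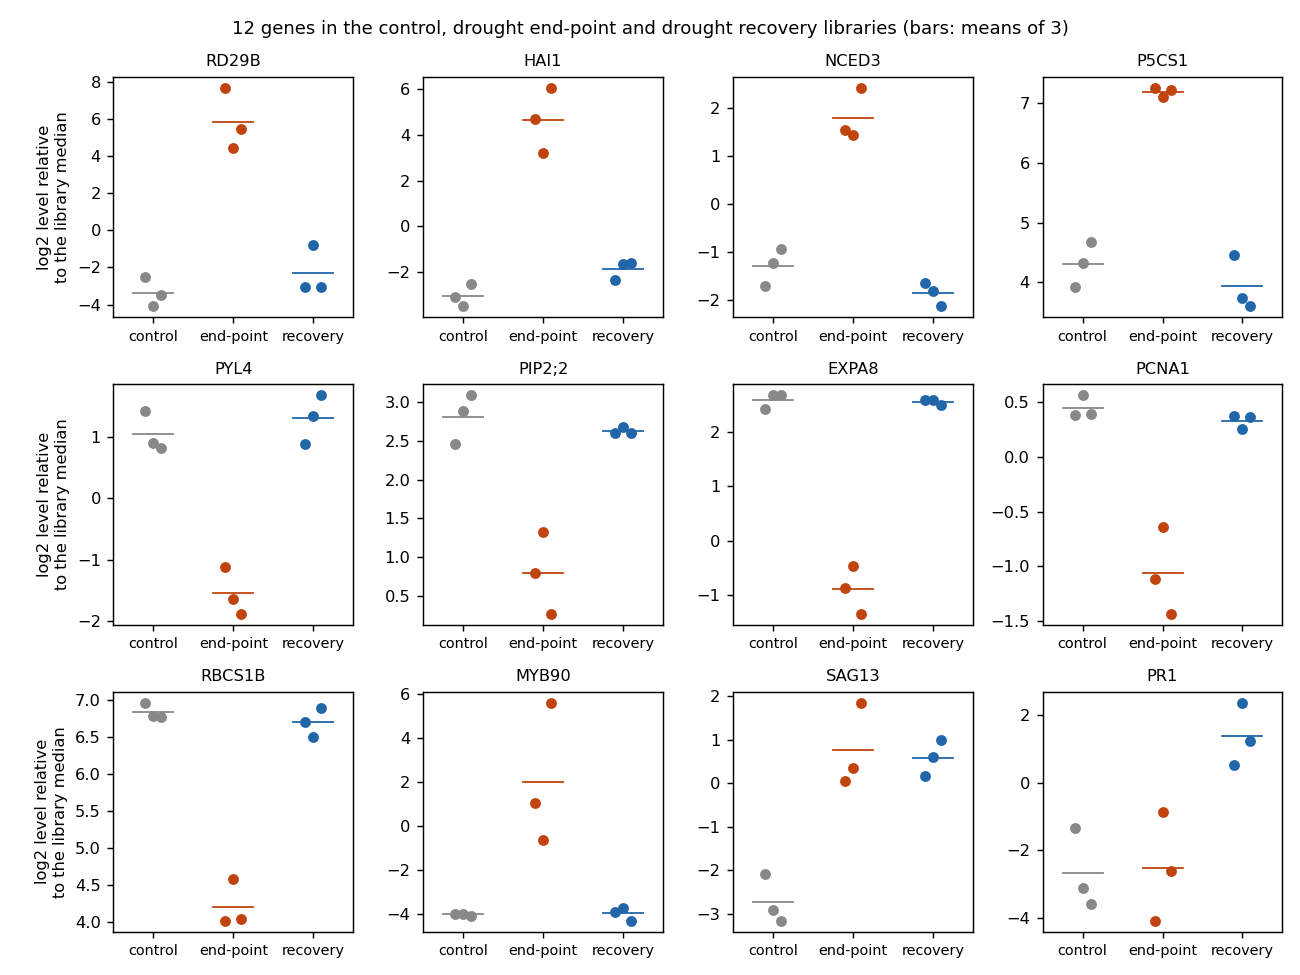
Levels of 12 genes (log2, relative to the library median) in the 3 control, 3 drought end-point and 3 drought recovery libraries, 1 point a library, with bars at the group means. RD29B, HAI1, NCED3 and P5CS1 are highest at the end-point, PYL4, PIP2;2, EXPA8, PCNA1 and RBCS1B are lowest there, and PR1 is highest in recovery.

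Genes that make abscisic acid and genes that remove it both fell. NCED3, the dioxygenase that limits synthesis of the hormone in drying leaves, stood at 1.54, 1.44 and 2.42 at the end-point, -1.66, -1.81 and -2.14 in recovery and -1.71, -1.23 and -0.95 in the control. Recovery was lower than the end-point by 3.67 ± 0.28 (adjusted p = 2.64e-13) and overlapped with the control. CYP707A1 and CYP707A2, the hydroxylases that inactivate the hormone, fell by 3.14 and 1.22. Falls were also seen for AAO3, the last oxidase of synthesis (-1.29 ± 0.21), ABA1 (-0.70 ± 0.18), ABA3 (-0.55 ± 0.12) and the exporter gene ABCG25 (-1.03 ± 0.10). In all, 8 of 12 tested members fell and 2, NCED5 and ABA2, were higher relative to the median only.

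Relative to the median, receptor genes that passed the test were higher, and kinase genes that passed were lower. As deposited, 5 of the 12 members were higher and 5 lower, so receptor genes were among the lower ones too. The list's median was 0.45 relative to the median and 0.03 as deposited. PYL4 stood at -1.12, -1.64 and -1.88 at the end-point, 0.89, 1.35 and 1.68 in recovery and 1.42, 0.91 and 0.82 in the control. End-point and recovery did not overlap, while recovery and control did. The rise was 2.85 ± 0.24 (adjusted p = 3.54e-12), a 7.21-fold higher level. PYL5 rose by 1.46 ± 0.19, PYL8 by 1.38 ± 0.12, PYL6 by 1.06 ± 0.17 and PYL1 by 1.01 ± 0.10. The kinase genes SNRK2.2, SNRK2.3 and OST1, the last of which acts in guard cells, fell by 0.56, 0.56 and 1.13. Of 12 members, 5 rose, 3 fell, 2 more were higher relative to the median only, and PYL7 and PYL9 did not pass the test.

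LEA proteins, dehydrins and cold-regulated (COR) proteins fell in 15 of 16 tested members of 20, with a median difference of -3.12. LEA7 stood at 4.67, 3.95 and 6.10 at the end-point and fell to -3.96, -0.66 and -4.75, beside -2.60, -3.81 and -2.93 in the control. Its end-point libraries spread widely but all lay above every other library. LEA4-5 fell by 7.61 ± 0.72, KIN1 by 6.12 ± 0.46 and the dehydrin gene LTI30 by 6.00 ± 0.48. KIN1 and KIN2 are near-identical neighbours whose reads could be split by counting, so both values are uncertain. Some members went below the control mean. COR413IM1, a chloroplast membrane protein, stood at 4.62, 4.54 and 4.41 at the end-point, 1.36, 1.23 and 1.06 in recovery and 1.88, 2.59 and 2.60 in the control. All of its recovery libraries lay below all control libraries, and its distance of -1.14 ± 0.34 from the control did not pass the test (adjusted p = 0.177). Of the list, 6 of 16 members had every recovery library below every control library, beside 18.2% of all genes, and 2 had this as deposited, beside 4.29%. SAG21, a mitochondrial LEA protein, covered 51.5% of its distance, standing at 1.10, 1.86 and 1.57 in recovery between 3.22, 2.89 and 4.17 at the end-point and 0.49, -0.59 and -0.79 in the control. Without end-point replicate 3, the highest, its fall of 1.92 ± 0.66 became 1.55 and did not pass the test (adjusted p = 0.0752).

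Proline and raffinose genes changed in both directions. P5CS1, which makes the limiting step of proline synthesis under drought, stood at 7.25, 7.10 and 7.22 at the end-point, 4.46, 3.74 and 3.60 in recovery and 3.92, 4.32 and 4.67 in the control. It fell by 3.26 ± 0.26 (adjusted p = 2.05e-13). P5CS2 fell by 1.84, and P5CDH, which acts in breakdown, by 1.06. The gene of the second proline dehydrogenase, PRODH2, rose by 1.04 ± 0.17. ERD5, the first proline dehydrogenase, stood at -1.68, -1.47 and -0.49 at the end-point, -0.74, -0.11 and 0.08 in recovery and -0.32, -0.18 and -0.41 in the control. Its end-point and recovery libraries overlapped. The difference of 0.96 ± 0.33 passed the test relative to the median (adjusted p = 0.0122) but not as deposited (adjusted p = 0.156), and it was also lost without end-point replicate 1 (0.73, adjusted p = 0.0862), end-point replicate 2 (0.83, adjusted p = 0.0515) or recovery replicate 3 (0.79, adjusted p = 0.0667). GOLS2, a galactinol synthase, fell by 4.32 ± 0.32, and RS5, which adds galactose to sucrose, by 1.04. DIN10, of the raffinose synthase family and induced by darkness, rose by 2.11 ± 0.38. Over the list, 6 of 14 tested members fell, 2 rose and 3 more were higher relative to the median only.

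Of the bZIP factors linked to low energy and proline breakdown, 5 of 9 (BZIP1, BZIP2, BZIP11, BZIP44 and BZIP53) are listed at 0 in every library, which gives no value. BZIP63 rose by 1.51 ± 0.19, while BZIP9, BZIP10 and BZIP25 fell by 1.06, 0.42 and 0.54.

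Water channels rose in 11 of 17 members and fell in 3, with a median difference of 0.98. PIP2;2, of the plasma membrane, stood at 0.79, 1.33 and 0.27 at the end-point, 2.60, 2.68 and 2.60 in recovery and 2.46, 2.89 and 3.09 in the control. The end-point libraries lay below all others. The rise was 1.83 ± 0.17 (adjusted p = 2.46e-11). TIP2;1, of the vacuole membrane, rose by 1.80 ± 0.23, TIP1;2 by 1.76 ± 0.26, TIP1;1 by 1.56 ± 0.18 and PIP2;3 by 1.44 ± 0.17. PIP2;2 and PIP2;3 are near-identical neighbours, so the share of each is uncertain. PIP2;5 fell by 1.50, PIP1;4 by 0.75 and PIP2;6 by 0.35. The call of PIP2;6 was lost when any of 4 single libraries was left out (end-point replicates 1 and 3, recovery replicates 2 and 3), with differences of -0.36 to -0.32. Opposite directions within the family were therefore seen on both scales.

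Among 32 genes of cell expansion and growth hormones, 20 rose, 1 fell and 2 more were higher relative to the median only, with a median of 1.13. As deposited 6 were lower. EXPA8, an expansin that loosens cell walls, stood at -0.87, -0.47 and -1.34 at the end-point, 2.59, 2.58 and 2.49 in recovery and 2.41, 2.67 and 2.67 in the control. Recovery and control overlapped, and the rise of 3.44 ± 0.23 (adjusted p = 5.59e-15) made a 10.9-fold higher level. EXPA1 rose by 2.32 ± 0.21, the wall remodelling enzyme gene XTH6 by 2.69 ± 0.20, the arabinogalactan protein gene FLA9 by 2.70 ± 0.22, and GASA6, a gibberellin-regulated peptide, by 2.96 ± 0.27. HBI1, a bHLH factor of growth, rose by 2.63 ± 0.23 and the brassinosteroid synthesis gene BR6OX2 by 1.05 ± 0.13. The member that fell was XTH22, known as a touch-induced gene, by 1.93 ± 0.53, a fall that became 1.18 without end-point replicate 3 and then did not pass the test (adjusted p = 0.0575). PIF4, PIF5, DWF4 and CPD did not pass the test. EXPA8 and GASA6 were also among the 15 largest rises, as was AT1G22690, of the gibberellin-regulated family, which rose by 3.07 ± 0.28.

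All 23 genes of the cell cycle and DNA replication were higher relative to the median, and 20 of them also as deposited, with a median of 0.99. PCNA1, the sliding clamp of DNA polymerase, stood at -1.11, -0.64 and -1.43 at the end-point, 0.37, 0.25 and 0.36 in recovery and 0.38, 0.56 and 0.39 in the control. The end-point libraries were the lowest and replicate 3 the lowest of these. PCNA1 rose by 1.38 ± 0.13, the ribonucleotide reductase gene TSO2 by 1.31 ± 0.14, the helicase subunit gene MCM7 by 1.25 ± 0.15 and the mitotic cyclin gene CYCB1;2 by 1.20 ± 0.15. CYCD3;1, CYCD3;3 and CDKB1;1 were higher relative to the median only. Fewer dividing cells and less RNA per cell cannot be told apart in whole leaves, here or in any list.

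Genes of ribosomes and their assembly were higher relative to the median in 20 of 22 members, and 10 rose on both scales, with a median of 0.69. The shares of all genes were 39.3% and 10.5%. FIB2, a fibrillarin that methylates ribosomal RNA, rose by 1.51 ± 0.20, RPS6A by 1.32 ± 0.16 and NOP56 by 0.96 ± 0.16. FIB1 and NUC1 did not pass the test. The calls of the other 10 turned on the scaling.

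Among photosynthesis genes, 4 Rubisco genes and 1 light harvesting gene rose. RBCS1B, a small subunit of Rubisco, stood at 4.02, 4.58 and 4.04 at the end-point, 6.70, 6.50 and 6.89 in recovery and 6.96, 6.78 and 6.77 in the control. It rose by 2.49 ± 0.28 (adjusted p = 9.2e-10). RBCS2B rose by 2.24 ± 0.34, RBCS3B by 1.55 ± 0.38 and RBCS1A by 1.25 ± 0.43. Without end-point replicate 3, the rise of RBCS1A was 1.07 and did not pass the test (adjusted p = 0.0602). These genes are near-identical copies, and reads could be split among them. Of the light harvesting genes, LHCB1.4 rose by 1.20 ± 0.27 and LHCB1.5 fell by 0.64, again within a family of near-identical copies. The fall of LHCB1.5 was lost when any library other than end-point replicate 3 was left out, at -0.67 to -0.51. Over the 24 members, 5 rose, 1 fell, RCA (Rubisco activase) was higher relative to the median only, and 17 did not pass the test. The standard errors of these genes, such as 0.39 for LHCB5, were large beside their differences.

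**Figure D2:**
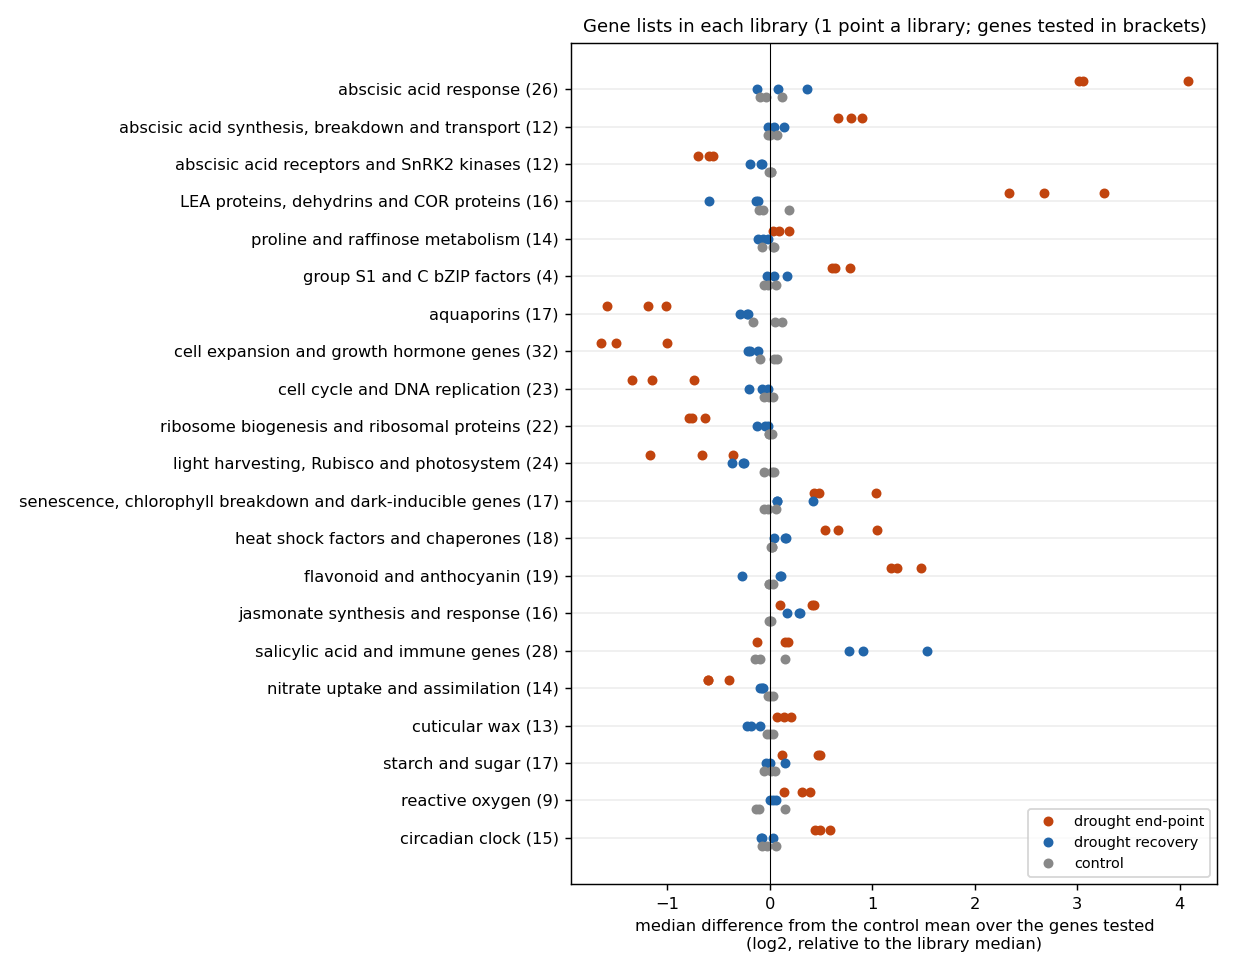
Median over the tested members of each gene list of the difference from the control mean (log2, relative to the library median), 1 point a library, for 3 drought end-point, 3 drought recovery and 3 control libraries. The end-point libraries stand at 2.33 to 4.08 for the abscisic acid response and LEA lists and the recovery libraries between -0.59 and 0.36, while for the salicylic acid list the recovery libraries stand highest, at 0.77 to 1.53.

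Genes of senescence and chlorophyll breakdown fell in 8 of 17 tested members and rose in 0 on both scales, with 3 higher relative to the median only. SWEET15, a sucrose exporter of ageing leaves, stood at 4.78, 4.38 and 5.44 at the end-point, -3.28, -1.57 and -2.93 in recovery and -2.59, -2.81 and -3.34 in the control. Recovery and control overlapped after a fall of 7.46 ± 0.42 (adjusted p = 1.9e-16). PAO and PPH, which open and strip the chlorophyll ring, fell by 2.20 and 1.38, NYE2 by 2.80 and NAP, a NAC factor of senescence, by 1.28. SAG13, a senescence and stress marker, stood at 0.06, 0.36 and 1.86 at the end-point, 0.17, 0.60 and 1.00 in recovery and -2.08, -2.91 and -3.16 in the control. Its recovery and end-point libraries overlapped, and all recovery libraries lay above all control libraries. The difference from the end-point was -0.17 ± 1.01 (adjusted p = 0.892) and the distance from the control 3.30 ± 1.01 (adjusted p = 0.177), neither of which passed the test. The former changed sign, to 0.38, without end-point replicate 3, and the latter passed with only the 2 groups in the fit (adjusted p = 0.0293).

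Heat shock factors and chaperones fell in 10 of 18 tested members, with a median of -0.50, and 15 were lower as deposited. Beside HSFA6A, HSP70-4 fell by 3.56 ± 0.47, the small chaperone gene HSP17.4 by 3.31 ± 0.71 and the factor gene DREB2A, which acts in both drought and heat, by 2.37. HSP90-1 stood at 0.67, 0.30 and 1.76 at the end-point, -0.13, 0.65 and 0.80 in recovery and -0.72, -1.26 and -1.30 in the control. Its recovery libraries overlapped with the end-point and lay above the control, covering 23.5% of the distance. HSP101, HSP70-1 and HSP17.6A, which heat induces or which fold proteins at all times, did not pass the test.

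Flavonoid and anthocyanin genes fell in 13 of 19 tested members and rose in 0, with a median of -1.28. As deposited 17 were lower. MYB90, a switch of anthocyanin synthesis, stood at 1.04, -0.61 and 5.63 at the end-point, -3.89, -3.70 and -4.30 in recovery and -3.99, -3.97 and -4.06 in the control. The end-point libraries were far apart, with replicate 3 the highest, and all lay above the rest. MYB90 fell by 5.98 ± 0.68 and MYB75 by 2.72. Enzyme genes fell from the early to the late steps. C4H fell by 1.09 ± 0.10, the chalcone synthase gene TT4 by 1.86 ± 0.22, DFR by 2.00 ± 0.30, LDOX by 1.71 ± 0.27 and the vacuolar carrier gene GSTF12 by 1.96 ± 0.22. MYB12, MYB111 and FLS1, of the flavonol branch, did not pass the test.

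Jasmonate genes fell in 8 of 16 tested members and rose in 2, beside 24.6% and 10.5% of all genes. VSP2, a storage protein and wound marker, fell by 3.06 ± 0.37, and AOC1, of hormone synthesis, by 1.10. PDF1.2, a defensin that needs ethylene and jasmonate, stood at -4.25, -4.08 and -4.28 at the end-point, -2.60, 1.02 and -2.51 in recovery and -2.84, -3.03 and -3.64 in the control. Replicate 2 of recovery stood apart from the other two, and without it the rise of 2.84 ± 0.95 (adjusted p = 0.00971) was 1.65 and did not pass the test (adjusted p = 0.142). JAZ10 rose by 0.83 ± 0.10. JAZ1, a repressor of the pathway, was 0.96 ± 0.30 above the control in recovery (adjusted p = 0.177), having covered 33.1% of its distance, and it passed with only the 2 groups in the fit (adjusted p = 0.000123). Its difference from the end-point did not pass the test relative to the median but passed as deposited (-0.89, limma, adjusted p = 0.0214). Without end-point replicate 1, or without recovery replicate 3, 5 of the 8 falls on the list passed.

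In cuticular wax, which limits water loss, 7 of 13 tested members fell, among them CER1 for alkanes (-2.10 ± 0.20), WSD1 for wax esters (-2.59 ± 0.19), and the factors MYB96 (-1.20 ± 0.12) and MYB94 (-1.19 ± 0.11), while MYB30 rose (1.12 ± 0.11). Starch and sugar genes fell in 9 of 17 members and rose in 2. For this and the other lists here, the shares of all genes were 24.6% for falls and 10.5% for rises. SUS3, a sucrose synthase, fell by 4.71 ± 0.27, APL3, of starch synthesis, by 2.44 and the drought-induced amylase gene BAM1 by 2.22, while BAM3, of starch breakdown at night, rose by 1.07 ± 0.18 and the cell wall invertase gene CWINV1 by 1.39 ± 0.23. GPT2, a glucose phosphate carrier of the chloroplast, fell by 1.75 ± 0.51, which covered 47.1% of its distance, and without end-point replicate 3 the fall was 1.08 and did not pass the test (adjusted p = 0.0766). Among nitrate genes 2 of 14 rose, the repressors LBD37 (0.91 ± 0.16) and LBD38 (1.35 ± 0.18), and 3 fell, both near the shares of all genes. A further 6 were higher relative to the median only. In the reactive oxygen list CSD2, a copper superoxide dismutase of the chloroplast, rose by 1.94 ± 0.37, CAT1 fell by 0.49, and CSD1 was higher relative to the median only. As deposited 4 of the 9 tested members of that list were lower. Of 15 clock genes, 9 fell and 0 rose, and 13 were lower as deposited. The largest fall was that of FKF1, which senses blue light, by 2.02 ± 0.35. All libraries were taken at 1 clock time, so phase was not measured.

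Of 28 genes of salicylic acid and immunity, 5 rose from the end-point on both scales, beside 10.5% of all genes. Against the control 0 passed the test, although the recovery libraries lay above the control libraries in 27. Salicylic acid is the hormone of defence against pathogens that feed on living tissue, and PR1 is its usual marker. PR1 stood at -4.09, -0.88 and -2.62 at the end-point, 0.52, 2.37 and 1.24 in recovery and -1.34, -3.11 and -3.59 in the control. Every recovery library was above every other library, and end-point and control overlapped. The rise over the end-point was 3.91 ± 1.31 (adjusted p = 0.0101), a 15-fold higher level and the largest rise under the naming rule. Without end-point replicate 1, the lowest, it was 3.13 and did not pass the test (adjusted p = 0.0648). Over the control PR1 was higher by 4.05 ± 1.31, which did not pass the test (adjusted p = 0.187).

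Of the 28 members, 5 rose on both scales (PR1, AIG1, EDS1, NUDT6 and GRX480), 11 more were higher relative to the median only and 0 were lower. Among all genes 10.5% rose on both scales and 39.3% were higher relative to the median. The list's median was 0.80 against 0.11 over all genes. AIG1, a GTPase induced by infection, stood at -3.52, -2.71 and -2.18 at the end-point, -0.69, 1.38 and 0.06 in recovery and -1.59, -2.92 and -3.32 in the control. Recovery replicate 2 was the highest, and no recovery library overlapped with either group. AIG1 rose by 3.05 ± 1.03 (2.49 and adjusted p = 0.0601 without that library), EDS1, a hub of immune signalling, by 1.21 ± 0.31, NUDT6 by 1.40 ± 0.39 and GRX480, a glutaredoxin, by 0.97 ± 0.20. The rises relative to the median only included PR5 (1.81 ± 0.66), SARD1, which switches on hormone synthesis (1.32 ± 0.49), WRKY46 (1.34 ± 0.55) and FRK1 (1.25 ± 0.35). The count of members that were higher relative to the median, 16, was 9 without end-point replicate 1 and 7 without recovery replicate 2, and PR5, SARD1 and WRKY46 were among those lost in both cases. Over all genes the same counts were 7472, 6903 and 7180 of 19010, so the rise of this list from the end-point rests on single libraries.

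Against the control, 27 of 28 members had all 3 recovery libraries above all 3 control libraries, beside 10.3% of all genes, and 26 had this as deposited, beside 18.5%. The exception relative to the median was PCC1. Their median distance from the control was 1.19 (1.31 as deposited), against -0.05 over all genes, and 0 of 28 passed the test. By library the list's median stood at 0.77, 1.53 and 0.91 in recovery, at -0.13, 0.18 and 0.15 at the end-point, and at 0.15, -0.10 and -0.15 in the control. Recovery replicate 2 was thus the highest and control replicate 1 the highest of its group. PR2, a glucanase, stood at 1.14, 1.76 and 1.76 at the end-point, 1.16, 3.42 and 1.92 in recovery and 0.29, -1.32 and -1.18 in the control, and PAD3, which makes the antimicrobial camalexin, at -1.62, -1.10 and 0.52, -0.58, -0.21 and 0.41 and -2.25, -3.45 and -3.57. For both, recovery and end-point overlapped, and neither difference between them passed the test. Without recovery replicate 2 the difference for PR2 turned to -0.01. With only the 2 groups in the fit, 5 of the 28 passed against the control (NPR1, NPR3, GRX480, FRK1 and FMO1), beside 2.15% of all genes.

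**Figure D3:**
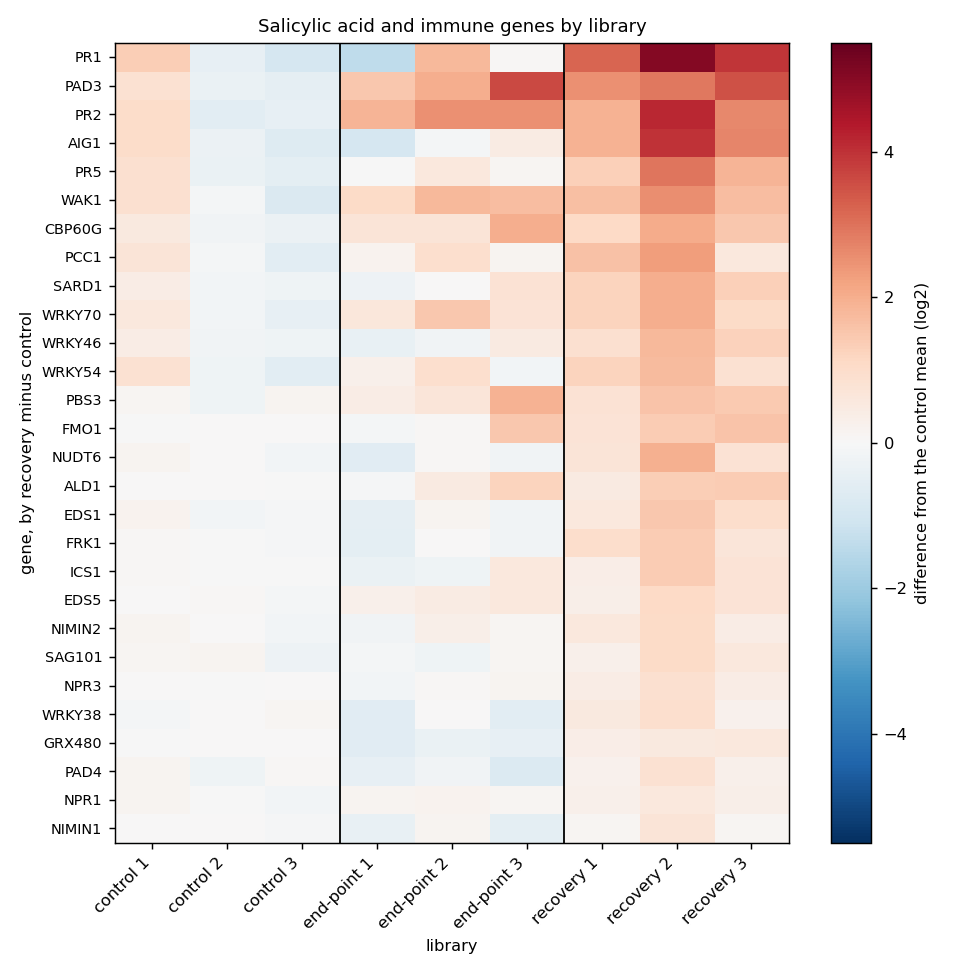
Difference from the control mean (log2) of 28 salicylic acid and immune genes in each of 3 control, 3 end-point and 3 recovery libraries, ordered by recovery minus control. All recovery libraries lie above all control libraries for 27 of the 28, beside 10.3% of all genes. The list's median is highest in recovery replicate 2, at 1.53, but single genes such as PAD3 are highest in replicate 3. The end-point columns are mixed.

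The remaining genes among the 15 largest rises were of 2 kinds. AT3G16530, a legume lectin, CRK40, a receptor kinase, and AT1G15125, a methyltransferase, were below the control at the end-point by 2.42, 2.40 and 2.44 and rose by 3.46 ± 0.49, 3.01 ± 0.26 and 3.31 ± 0.41. AT5G44020, an acid phosphatase, and AT5G44568, with no described function, did likewise, by 3.06 ± 0.20 and 2.74 ± 0.37. PCR1, TAT3 (a tyrosine aminotransferase) and CRK4 did not pass the test against the control at the end-point and rose by 3.43 ± 1.00, 2.90 ± 0.98 and 2.74 ± 0.74. Without end-point replicate 1 the rise of TAT3 was 2.17 and did not pass the test (adjusted p = 0.0822). PCR1 stood at -2.96, -1.27 and -0.49 at the end-point, 1.37, 3.06 and 1.13 in recovery and 0.23, -1.44 and -2.41 in the control. As in PR1 and AIG1, recovery replicate 2 was the highest.

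How far genes returned was measured as the share of the distance between end-point and control that recovery had covered, 100% being the control mean. It was taken over genes whose end-point differed from the control by 1 or more and passed the test. That test called 12826 genes (67.5%), 4802 higher (25.3%) and 8024 lower (42.2%) at the end-point. Because the end-point libraries stand both in the choice of genes and in the share, some return follows from the choice alone. The 3 comparisons among end-point, recovery and control share libraries and are set side by side only. The 926 genes above the control returned by a median of 97.3%, with quartiles of 85.4% and 107% and values by recovery library of 96.5%, 94.3% and 99.0%. The 1019 genes below the control returned by 87.9%, with quartiles of 81.6% and 93.9% and values by library of 92.2%, 79.8% and 91.6%. Replicate 2 was the least returned on both sides. As deposited, the medians were 89.1% above and 95.7% below the control, so the order of the 2 sides turned with the scaling. On that scale 2712 genes passed above and 172 below the control by 1 or more, so the genes that meet the rule differ between the scales. Of the first group 47 genes had returned by less than 50% and 385 were past 100%, and of the second 5 and 113.

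Median return was 98.9% for 25 genes of the abscisic acid response, 109% for 13 LEA genes, 104% for 5 of proline and raffinose, 94.1% for 7 of senescence, 93.1% for 11 flavonoid genes, 79.5% for 8 heat shock genes and 75.8% for 4 jasmonate genes. Among lists that were low at the end-point it was 100% for 4 genes of receptors and kinases, 90.8% for 14 of the cell cycle, 88.4% for 7 of photosynthesis, 86.3% for 20 of expansion and 83.3% for 11 water channels. For 3 salicylic acid genes that were above the control at the end-point, PR2, WAK1 and PAD3, it was -26.8%. The differences of PR2 and PAD3 between recovery and end-point did not pass the test, and most of that list had not been high at the end-point. Differences between lists were not tested.

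**Figure D4:**
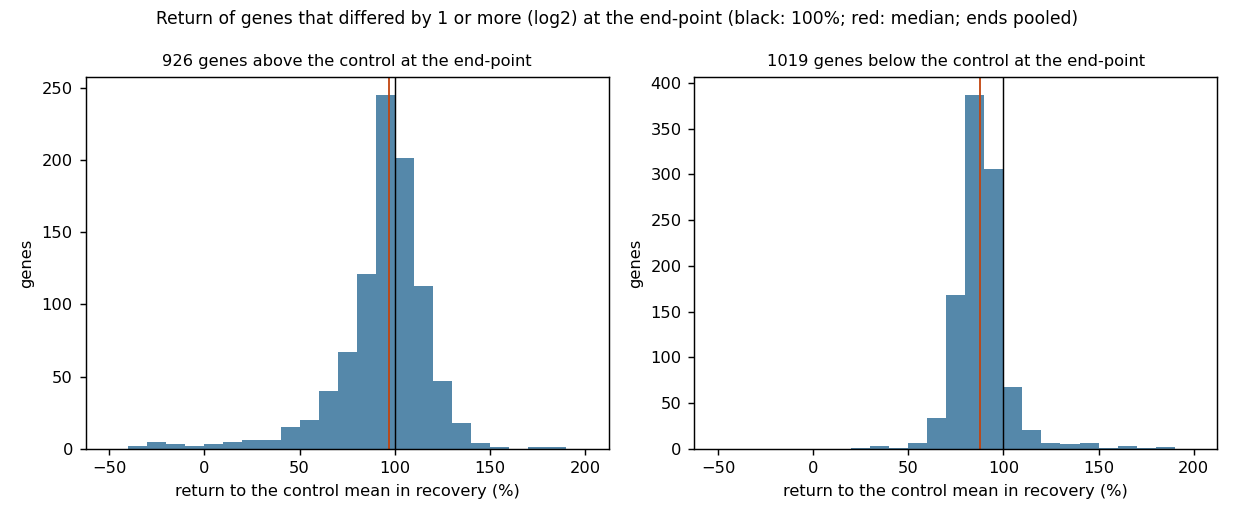
Number of genes by their return to the control mean in recovery (%), for 926 genes above and 1019 below the control at the drought end-point by 1 or more (log2), in bins of 10 with the ends pooled. The medians, drawn in red, are 97.3% and 87.9%, and the tail under 50% holds 47 and 5 genes.

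Set directly against the control, 0 of 19010 genes passed the test in recovery (limma, lowest adjusted p 0.0915), with 2853 at an unadjusted p under 0.05. The call depends on which libraries estimate the spread. With only the 2 groups in the fit 802 genes passed, 408 higher (2.15%) and 394 lower (2.07%), 51 of them higher by 1 or more and 1 lower. After quantile normalization 5 passed, NAC004 and RLP40 higher and ARPN, SHY2 and AT3G62499 lower, with differences of 0.47, 0.78, -0.75, -0.55 and -0.21. These 5 were named after their values were seen. All recovery libraries lay above all control libraries for 1951 genes and below for 3463 (18.2%).

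Of the 24 photosynthesis genes, 21 had every recovery library below every control library, and 17 as deposited, beside 18.2% and 4.29% of all genes. The list's median stood at -0.25, -0.37 and -0.26 in the recovery libraries and between -0.06 and 0.04 in the control. Their distances were small, such as -0.45 ± 0.34 for LHCB4.2 and -0.35 ± 0.38 for LHCA1, and 0 passed the test over all libraries, whereas 16 passed with only the 2 groups in the fit, beside 2.07% of all genes. Water channels lay below the control in 10 of 17 members (6 as deposited) and genes of expansion in 9 of 32 (7 as deposited). Jasmonate genes lay above it in 9 of 16 (10 as deposited), beside 10.3% (18.5%) of all genes.

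Drought was also given together with heat, and the same contrast of recovery and end-point was compared between the 2 treatments, each with 3 libraries a group. The contrast differed for 5795 genes (30.5%), 2310 higher (12.2%) and 3485 lower (18.3%) in drought than in heat-drought. This count is unsteady, since it was 7745 as deposited, of which 6879 were higher, and 25 with only these groups in the fit. Without replicate 2 of the drought end-point it was 2814, and without replicate 3 of the heat-drought end-point 2581. Called on both scales were 2310 higher (12.2%) and 866 lower (4.56%).

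The median was further from 0 after heat-drought than after drought in 18 of 21 lists relative to the library median and in 17 as deposited, 16 of them the same lists. Abscisic acid response genes had a median of -3.24 after drought and -4.38 after heat-drought, and the contrast was higher in drought on both scales for 11 of 26 members. Heat shock genes had -0.50 and -1.90, with 8 of 18 members higher in drought on both scales, and senescence genes -0.53 and -1.64, with 6 of 17. Expansion genes had 1.13 and 2.07, with 15 of 32 lower in drought on both scales, and cell cycle genes 0.99 and 1.75, with 14 of 23. Photosynthesis genes had 0.39 and 1.66 (-0.02 and 0.94 as deposited), with 6 of 24 lower. Flavonoid genes had a median of -1.28 after drought and 0.07 after heat-drought, which as deposited was -1.69 and -0.65, so the sign after heat-drought turned with the scaling. On both scales 7 of the 19 fell and 1 rose after heat-drought, beside 6107 that fell and 2473 that rose among all 19010 genes. The contrast was lower in drought on both scales for 8 of the 19, beside 4.56% of all genes. Starch and sugar genes were also further from 0 after drought, at -0.61 and -0.18 (-1.03 and -0.90 as deposited), and jasmonate genes relative to the median only, at -0.30 and -0.06 (-0.71 and -0.78 as deposited). DFR, for one, fell by 2.00 after drought, and the contrast differed from that of heat-drought by -1.87 ± 0.42 (adjusted p = 0.00213). That difference did not pass the test with only these groups in the fit (adjusted p = 0.0636). Salicylic acid genes had 0.80 and 0.98 (0.38 and 0.26 as deposited), and the difference was called for 1 of 28, PCC1.

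Humidity, in which trays were sealed with an excess of water, served as the treatment at the other end of the water scale. Recovery differed from the end-point in 1435 genes there. The contrast differed between drought and humidity for 8958 genes (47.1%), 5423 higher (28.5%) and 3535 lower (18.6%), and on both scales for 1783 (9.38%) and 3535 (18.6%). The abscisic acid response list had a median of -3.24 after drought and 0.40 after humidity, with 25 of 26 members lower in drought on both scales. PYL4 differed in the other direction, by 4.37 ± 0.34 (adjusted p = 1.38e-12). Water channels had 0.98 and -0.14, with 10 of 17 higher in drought on both scales, and expansion genes 1.13 and -0.03, with 21 of 32. In salicylic acid genes the medians were 0.80 and 0.17, and 1 of 28 was higher in drought on both scales. Not every list stood apart from drought or stayed at 0 after humidity. Cuticular wax genes had -0.23 after drought and -0.24 after humidity (-0.64 and -0.30 as deposited). After humidity 5 of 13 wax genes fell and 1 rose, and 8 of 19 flavonoid genes rose and 3 fell. Among all 19010 genes 823 fell and 329 rose.

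**Figure D5:**
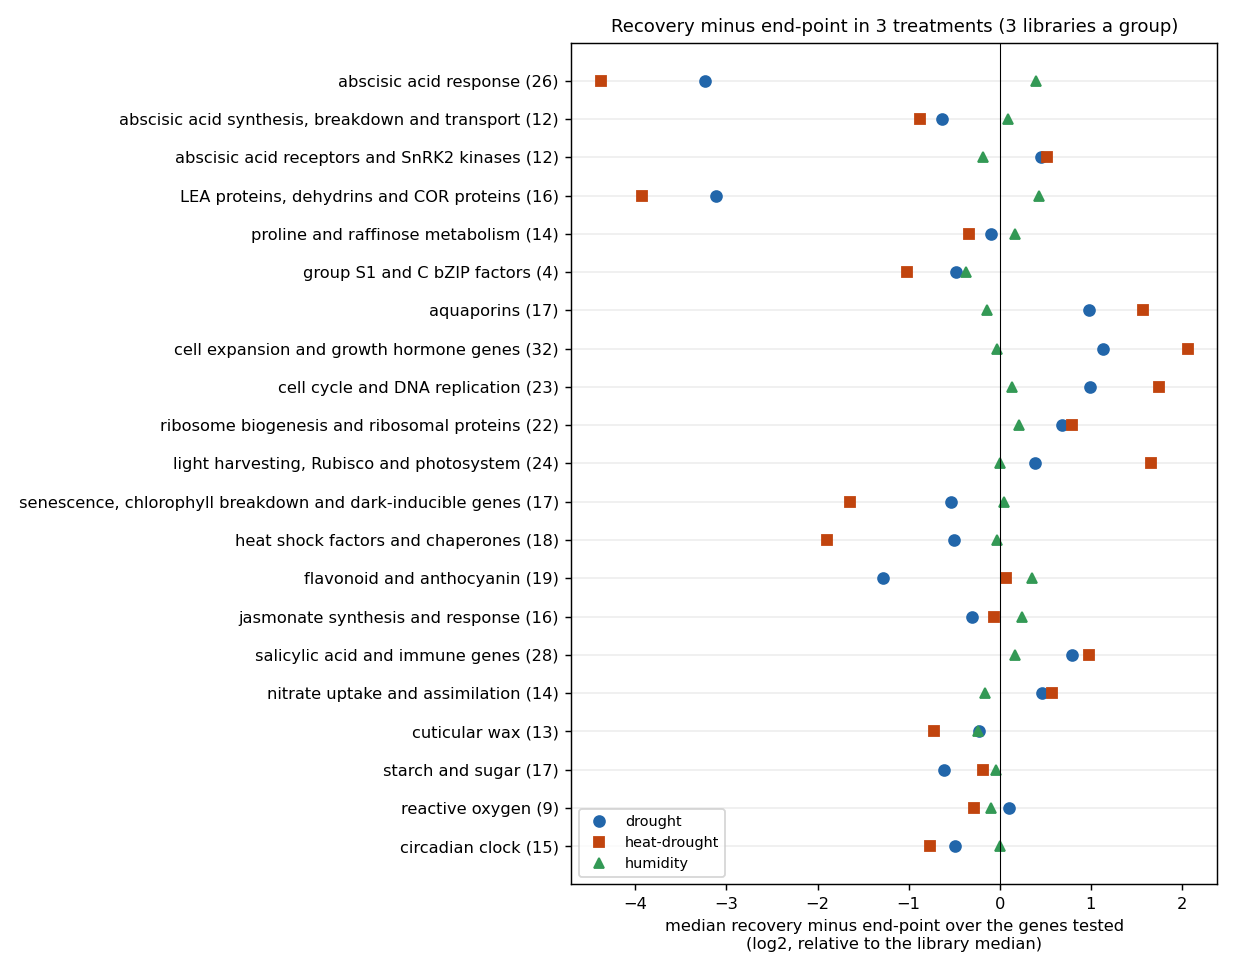
Median over the tested members of each list of recovery minus end-point (log2, relative to the library median) for drought, heat-drought and humidity, 3 libraries in each group. Drought and heat-drought lie on the same side of 0 for most lists, flavonoid genes being at -1.28 and 0.07 (-1.69 and -0.65 as deposited). Humidity lies between -0.37, for the group S1 and C bZIP factors, and 0.43, for the LEA list.

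The libraries carried the marks of leaf tissue. Mesophyll markers (LHCB3, LHCB6, RBCS1A and CA1) passed the filter on low values in 4 of 4. Root markers passed in 0 of 3, flower markers in 1 of 3 and shoot meristem markers in 2 of 4. None of them was listed at 0 in any of the 3 groups. The summed level of the shoot meristem markers ranged from -1.31 to -0.90 at the end-point, -1.20 to -0.77 in recovery and -1.03 to -0.93 in the control. The summed level of the mesophyll markers ranged from 9.49 to 10.39 at the end-point, 10.79 to 10.98 in recovery and stood at 11.13 in each control library to 2 decimals. Guard cell and stomatal markers were higher in recovery in 8 of 11 members relative to the median, beside 39.3% of all genes. On both scales 1 rose, MYB60, while GORK, a potassium channel induced by abscisic acid, fell by 1.55. Their summed level ranged from 2.74 to 2.96 at the end-point, 2.94 to 3.11 in recovery and 3.18 to 3.28 in the control. Of the phloem markers SUC2, a sucrose carrier, fell by 0.81, and the other 3 were lower as deposited only. The part of cell types in the results was not tested. Replicates correlated at 0.986 to 0.9955 at the end-point, 0.9946 to 0.9966 in recovery and 0.9963 to 0.9981 in the control over the tested genes, and read depth is not given.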

How the data were processed

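The authors deposited 1 table of regularized log2 values (rlog), 28775 genes by 57 libraries from paired-end reads. Per the submitters' processing notes, Trimmomatic, STAR, featureCounts and DESeq2 were used with TAIR10, with no role or version given. Whether counting used strand is not given in the sources used here, so overlapping and antisense genes are uncertain, and depth is unknown. The names of 51 columns matched 1 sample each (17 groups of 3), and 6 other columns were not used.

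From these values, libraries were centred on their medians over 19010 genes with a mean rlog of 3 or more, and limma 3.58.1 (R 4.3.3, intensity trend and robust variance) was fitted to all 51 libraries, which share 1 estimate of the spread per gene. P-values were adjusted by Benjamini-Hochberg, and a call needs an adjusted p under 0.05. The fit was also run on simulated data with independent noise, 1 spread per gene in all groups and few changed genes. That setting is simpler than these data and does not show how the fit performs on them. The text names the 15 largest falls and rises called on both scales with no overlap between groups and no library over 20, list members, and the 5 highest and lowest of each difference between treatments. The samples, 21 lists (395 genes, 368 tested) and rules were chosen with earlier results of these data known. Symbols come from RefSeq (28009 of 28775 IDs matched, TAIR10.1), as do the 250 bases before gene starts, which a script cut from the genome because no promoter table was used here. Alternatives were the values as deposited, quantile normalization, other filters, only the groups compared, no trend, a replicate block, and each library left out.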

Additional observations from a re-analysis of the deposited data

Results flagged for a closer look

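Between drought and heat-drought, the contrast of recovery and end-point differed for 5795 genes in limma, and between drought and humidity for 8958. These 2 counts, and the genes named here by rule, were picked out because a test of the difference between treatments passed. No explanation was tested. With only those groups in the fit, 25 genes passed against heat-drought, and whether the genes named below are among them is not given here. Replicates of the heat-drought end-point correlated at 0.9799 to 0.9947, the former being the lowest value of any group.

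Against heat-drought, the largest positive differences (the contrast higher in drought) were 6.71 for AT2G23110 and 6.65 for AT2G42560, both of the LEA kind, 5.85 for the glyoxalase gene GLYI7, 5.84 for the glycosyltransferase gene AT2G36780 and 5.71 for HIPP22. The most negative were -4.42 for NUDT24, -2.95 for PCC1, -2.68 for AT3G22235, -2.40 for ACD6 and -2.35 for the lectin gene AT5G03350. Against humidity, the largest were 5.18 for AT1G15125, 5.16 for DIN10, 4.70 for AT3G16530, 4.43 for BT5 and 4.37 for PYL4. The most negative were -10.09 for HSFA6A, -9.56 for AT2G37870, -9.24 for AT3G02480, -9.13 for LTP3 and -8.76 for RD29B. The last 5 are also among the largest falls within drought, whose libraries both differences share. Genes with a library over an rlog of 20 were kept out of these names, which left out CYP71A15 against heat-drought (10.88, with 27.01 in heat-drought end-point replicate 3) and RAB18 against humidity (-9.78).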

How the results depend on the processing

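The count of genes that differed between drought recovery and end-point stayed within 1.5 times of 12145 under every alternative fit of it, and one library left out gave 10594 to 12171. Asking for a call in the same direction on both scales, chosen after seeing the data, gave 6674, and likewise 6622 for end-point against control, 3176 against heat-drought and 5318 against humidity. Recovery against control gave 802 with only the groups compared, 5 after quantile normalization and 0 under the others. The heat-drought difference gave 25 with only those groups and 2581 to 7599 with one library left out. With one library left out, end-point against control gave 11341 to 12787 and the humidity difference 7600 to 9485. Median return as deposited was 89.1% above and 95.7% below the control, and with one library left out it was 96.0% to 98.4% and 85.7% to 91.8%. The cause was not tested.

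Of 2159 values of named genes under alternatives, 2107 kept direction and call, 44 lost and 5 gained the call and 3 changed sign: SAG13 to 0.38 without end-point replicate 3 and to 0.04 without recovery replicate 1 (its other values with one library left out going down to -0.52), and PR2 to -0.01 without recovery replicate 2 (up to 1.12 otherwise), none of them called. Of 546 list counts, 55 moved by over 1.5 times, 16 of them as deposited.

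Replicate numbers were not used to pair the samples in the main fit. Correlations of deviations from group means ran from -0.368 to 0.30 between same-numbered libraries and from -0.312 to 0.349 between others. Deviations from a mean of 3 libraries are tied to each other, so these correlations cannot settle whether the numbers pair samples. With a replicate block 12238 genes differed between recovery and end-point, 12922 between end-point and control, 0 between recovery and control, 6052 against heat-drought and 9100 against humidity.

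Depth is not given, so a gene that does not pass the test is not shown to be unchanged.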

Other observations

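With only the recovery and control groups in the fit, the 10 most elevated of the 408 genes that were higher were SAG13, CHI, GSTU4, GLYI7, AT3G22600, AT2G45220, AOX1D, GPT2, CSLG2 and AT1G26390, from 3.30 ± 0.39 in SAG13 to 1.83 ± 0.17 in AT1G26390. This setting and these genes were chosen after the values were seen. CHI, a chitinase, stood at -0.68, 0.86 and 0.07 in recovery and at -2.68, -3.17 and -3.01 in the control, 3.03 ± 0.45 higher (limma, adjusted p = 0.0482, and 0.177 over all libraries). GSTU4, a glutathione transferase, stood at -1.48, -1.17 and -1.17 in recovery and at -3.36, -3.88 and -4.16 in the control, 2.53 ± 0.21 higher (limma, adjusted p = 0.0042, and 0.211 over all libraries). AOX1D, an alternative oxidase of mitochondria, was 2.16 ± 0.32 higher (adjusted p = 0.0401, and 0.231 over all libraries), and GLYI7 2.25 ± 0.25 (adjusted p = 0.0184, and 0.206). At the end-point CHI, GSTU4, AOX1D and GLYI7 stood 4.22, 4.09, 1.91 and 6.11 above the control, and AT1G26390 stood at -0.23 from it. On the lower side SEN1, a dark-induced gene, was the furthest down, at -1.05 ± 0.18 (adjusted p = 0.0243, and 0.201 over all libraries).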
